A study of Arabidopsis thaliana with 6 samples.

Results

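Class III peroxidases are haem enzymes that plants secrete into the cell wall and the vacuole, and they form one of the largest enzyme families of Arabidopsis thaliana. With hydrogen peroxide they oxidise phenolic substrates, which joins monolignols into lignin and cross-links wall polymers, and some of them can also produce reactive oxygen species in the wall. In seedlings they are known for stiffening walls when growth stops, for lignifying vascular tissue and the root endodermis, for root hair growth and for the oxidative burst of defence. The genes described here are the 56 loci of a fixed list of the family (PRX and PER genes). Of these, 53 had values in the deposited tables, and 47 averaged 10 or more normalized counts across the libraries and were tested. The 6 others with values, below that mean, are given by their counts, and AT2G18140, AT3G50990 and AT5G58390 were not analysed here. The tables held 24487 genes in all. A further 17 loci of the family lie outside the list.

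RNA was sequenced from whole seedlings of 2 genotypes, 3 libraries labelled atino80-6 and 3 labelled wild type. All plants were 4 days old and had been kept at 22 °C in continuous darkness on agar, after a cold, dark period. The line atino80-6 is named after INO80 (AT3G57300), the ATPase of a chromatin remodelling complex; the labels give neither the kind of allele nor the strain, and they do not say whether replicates were separate cultures, so p-values measure only the spread between these libraries. Libraries held 18446028 to 24156610 reads. INO80 had 28174, 33013 and 33322 normalized counts in atino80-6-labelled libraries, against 5586, 6173 and 5758 in those labelled wild type, a log2 change of 2.43 ± 0.10 (limma adjusted p = 2.8e-06). A higher transcript goes against what loss of the transcript would give, so every direction here rests on the labels as deposited. Over the 20222 tested genes, the root mean square log2 difference from the other libraries of the group was largest for atino80-6 3 (0.524 and 0.461, against 0.393 between the other two) and for wild type 1 (0.469 and 0.418, against 0.368).

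Values are normalized counts (reads scaled between libraries), recovered from the authors' deposited FPKM and mean signal, where they are compared between libraries, and FPKM (fragments scaled for gene length and depth) where levels of different genes are compared. A log2 change is the difference of mean log2(normalized counts + 1), atino80-6 minus wild type, with the standard error of the limma fit. The words rose and fell are kept for genes whose Benjamini-Hochberg adjusted p was under 0.05 over all 20222 tested genes. In whole seedlings, fewer cells of a type and less RNA per cell cannot be told apart.

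Several members lie next to each other, on the same or on opposite strands, and the sequence decides how far their reads can be told apart. Coding sequences, from RefSeq on build TAIR10.1, were compared between neighbours. AT1G05240 and PRX2 (AT1G05250), side by side on chromosome 1, were identical over all 978 coding bases, so reads inside the coding sequence cannot be assigned to either gene. Untranslated regions were not compared. PRX33 (AT3G49110) and PRX34 (AT3G49120), side by side on chromosome 3, shared 90.4% of aligned positions, and 9.74% of the 50-base windows of PRX33 also occurred in another member. The first 60 coding bases of the identical pair, and the stretch of 60 bases where PRX33 and PRX34 differ most (coding positions 714 to 773 of PRX33 and 711 to 770 of PRX34, counted from the start codon), show both extremes. Capitals mark the 16 differing bases.
AT1G05240: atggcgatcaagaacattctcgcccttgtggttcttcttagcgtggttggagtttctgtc
AT1G05250: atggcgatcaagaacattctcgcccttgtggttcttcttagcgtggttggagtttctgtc
PRX33: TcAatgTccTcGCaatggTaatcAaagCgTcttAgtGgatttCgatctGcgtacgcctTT
PRX34: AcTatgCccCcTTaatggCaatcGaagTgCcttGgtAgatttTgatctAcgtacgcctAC

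Among the other neighbours, identity was 93.8% for Prx37 (AT4G08770) and AT4G08780, 92.4% for AT4G37520 and AT4G37530, 91.7% for AT2G18140 and AT2G18150, and 90.6% for AT2G38380 and AT2G38390. PRX53 (AT5G06720) and AT5G06730 shared 80.4%, and PER4 (AT1G14540) and AT1G14550 shared 71.8%. Identity was 67.4% between AT5G64100 and AT5G64110 and 60.4% between AT5G64110 and PRX71 (AT5G64120). The lowest value among neighbours was 54.3%, between AT5G19880 and AT5G19890. PRX53, AT5G06730, PER4, AT1G14550, PRX71, AT5G64100 and AT5G64110 shared no 50-base window with another member. How the authors' counting treated reads that match 2 genes is not given in the sources used here.

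The 250 bases before the annotated start of 4 members with large falls are printed next, because these genes carry the results below and 2 of them, PER4 and AT1G14550, are neighbours that fell together. Capitals mark TTGAC or its reverse complement GTCAA, the core of the W-box recognised by WRKY transcription factors. The other motif searched on both strands, the G-box CACGTG, recognised by bHLH and bZIP factors, is in none of these windows, so no overlap of the motifs arises. Sequences are from RefSeq, TAIR10.1, read 5′ to 3′ on the gene's strand.
AT3G03670, chr3:903412-903661, minus strand: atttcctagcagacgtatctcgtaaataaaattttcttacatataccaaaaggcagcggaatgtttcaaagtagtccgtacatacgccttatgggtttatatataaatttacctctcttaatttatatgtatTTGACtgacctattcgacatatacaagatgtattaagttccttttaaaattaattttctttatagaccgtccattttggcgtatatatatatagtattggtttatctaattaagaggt
PER4, chr1:4975706-4975955, minus strand: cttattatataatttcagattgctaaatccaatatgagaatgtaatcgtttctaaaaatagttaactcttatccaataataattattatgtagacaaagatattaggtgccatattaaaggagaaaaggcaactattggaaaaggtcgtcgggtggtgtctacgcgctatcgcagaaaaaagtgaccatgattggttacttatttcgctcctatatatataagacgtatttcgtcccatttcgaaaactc
AT1G14550, chr1:4978672-4978921, plus strand: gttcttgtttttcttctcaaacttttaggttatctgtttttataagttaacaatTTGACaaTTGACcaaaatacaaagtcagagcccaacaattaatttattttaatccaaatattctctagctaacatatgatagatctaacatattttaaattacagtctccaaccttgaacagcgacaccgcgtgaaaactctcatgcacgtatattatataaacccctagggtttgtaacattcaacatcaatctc
PRX71, chr5:25661008-25661257, minus strand: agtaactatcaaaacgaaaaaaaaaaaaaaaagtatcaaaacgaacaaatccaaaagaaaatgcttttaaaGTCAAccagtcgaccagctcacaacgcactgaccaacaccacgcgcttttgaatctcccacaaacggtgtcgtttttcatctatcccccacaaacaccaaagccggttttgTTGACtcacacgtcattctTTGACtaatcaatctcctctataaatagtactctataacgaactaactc

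PRX71 held 3 copies of the W-box core, AT1G14550 held 2, AT3G03670 held 1 and PER4 had none. AT5G64110 and AT5G19890, which fell more than PRX71 on the log2 scale, had none either and are not printed. Over all 56 members, 25 windows (44.6%) held TTGAC, against 44.9% of the 27443 windows of nuclear protein-coding genes. Among the members that fell it was 4 of 12, and among those that rose 2 of 4. CACGTG was in 0 of the 56 members' windows and in 6.49% of all windows. These matches describe the letters of the windows only.

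Of the 47 tested members, 4 rose and 12 fell in atino80-6-labelled libraries. Across all tested genes 34.2% passed the test, 17.7% higher and 16.6% lower, so the members' share of 34.0% was close to the background, with 25.5% lower and 8.51% higher. The log2 change was negative for 34 of the 47 and positive for 13, with a median of -0.25, against 0.00 over all tested genes. The 3 libraries of each group did not overlap for 18 members, and for 48.3% of all tested genes. The authors' deposited table had 3 of these members higher and 15 lower at an adjusted p under 0.05, where 17.4% and 16.5% of all genes with the same mean were called.

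**Figure D1:**
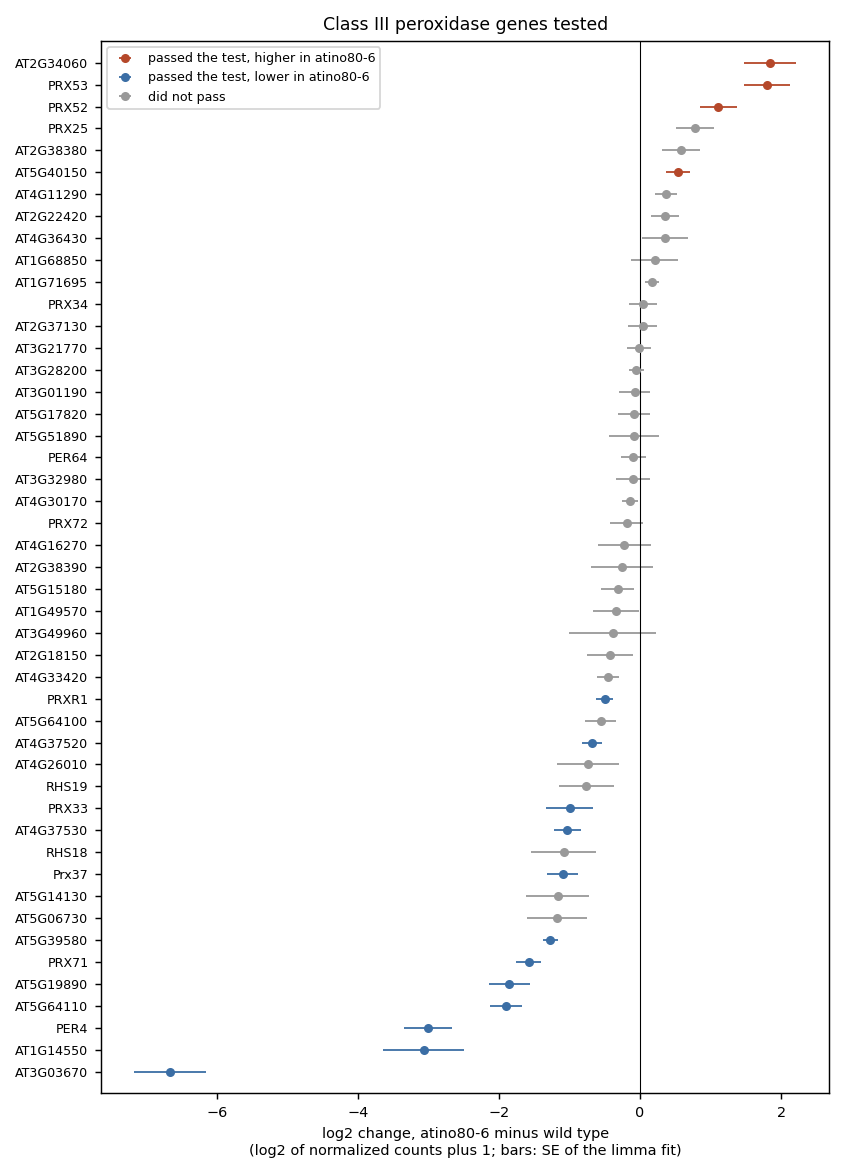
Log2 change of each of the 47 tested members (atino80-6 minus wild type, log2 of normalized counts plus 1; points, with bars for the standard error of the limma fit), ordered by size and coloured by whether the gene passed the test. Changes run from 1.84 for AT2G34060 to -6.66 for AT3G03670, and 12 of the 16 coloured points lie left of 0.

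Levels differed widely within the family. Mean FPKM of the tested members over the 6 libraries ran from 0.305 to 940, with a median of 8.85. AT2G37130, a member placed among the defence-related peroxidases, had the highest level per length, 946 ± 159 FPKM in atino80-6-labelled libraries and 933 ± 213 FPKM in wild type (SD, n = 3 each). Its values of 857, 852 and 1129 FPKM overlapped with the wild type values of 688, 1036 and 1075 FPKM, and its log2 change was 0.035 ± 0.20 (limma adjusted p = 0.91). PRX71 had 189, 222 and 318 FPKM in atino80-6, against 660, 704 and 768 FPKM in wild type. In wild type it ranked directly below AT2G37130, whereas in 2 of the 3 atino80-6 libraries it also lay below AT5G64100 and PRXR1 (AT4G21960). AT5G64100 had 234, 259 and 320 FPKM in atino80-6 and 273, 508 and 447 FPKM in wild type. PRXR1 had 268, 238 and 268 FPKM in atino80-6 and 309, 384 and 408 FPKM in wild type. PRX34, a source of the pathogen-induced oxidative burst, came after these with 153, 131 and 193 FPKM in atino80-6 and 113, 164 and 189 FPKM in wild type. Within the spread of the libraries, AT5G64100 and PRXR1 did not separate in either group.

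**Figure D2:**
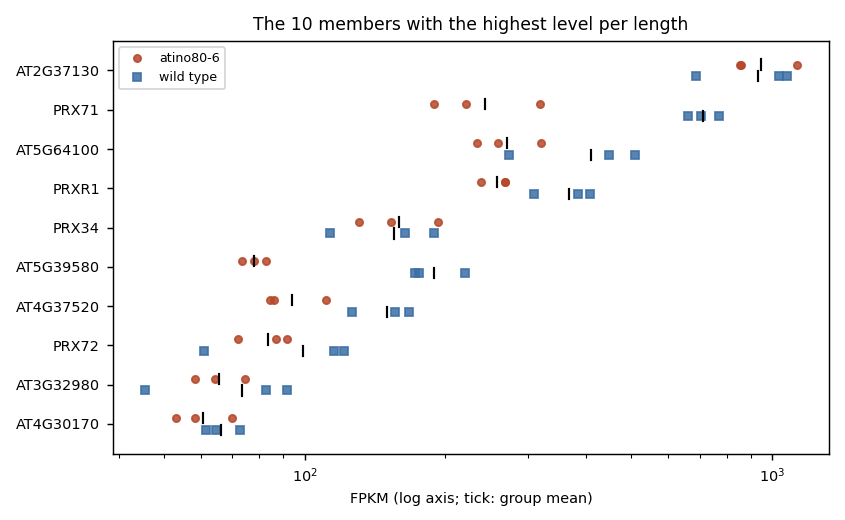
FPKM (log axis) per library of the 10 members with the highest mean level per length, with a tick at each group mean. PRX71, AT5G39580, AT4G37520 and PRXR1 are lower in all 3 atino80-6 libraries than in any wild type library, whereas AT2G37130 and PRX34 overlap.

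The summed FPKM of the members were 2407, 2423 and 3088 in atino80-6-labelled libraries and 3033, 3917 and 4082 in wild type, means of 2639 ± 389 and 3677 ± 564 (SD, n = 3 each). The sums overlapped, because atino80-6 3 lay above wild type 1. As a share of all normalized counts, the members took 0.479%, 0.477% and 0.611% in atino80-6 and 0.613%, 0.755% and 0.797% in wild type. The make-up of the sum differed too. AT2G37130 supplied 35.6%, 35.2% and 36.6% of the summed FPKM in atino80-6, against 22.7%, 26.5% and 26.3% in wild type. PRX71 supplied 7.87%, 9.15% and 10.3% in atino80-6, against 21.7%, 18.0% and 18.8% in wild type. The 10 members highest per length made up 85.6% of the sum on average over the libraries.

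The 11 members placed by published work in lignification and the vascular wall gave 1 gene that rose, 2 that fell and 7 that did not pass among 10 tested. These shares of 10% higher and 20% lower stand against 17.7% and 16.6% of all tested genes. Their median log2 change was -0.093. PER4, reported to take part in lignin formation, had 162, 309.8 and 364 normalized counts in atino80-6-labelled libraries, against 3313, 1544 and 1882 in wild type. It fell 8.06-fold, with a log2 change of -3.01 ± 0.34 (limma adjusted p = 0.00025). All atino80-6 libraries lay far below every wild type library. PRX71, known as a negative regulator of growth, had 6818, 7981 and 11455 normalized counts in atino80-6 and 23745, 25357 and 27664 in wild type, a fall of 2.92-fold and -1.58 ± 0.18 on the log2 scale (limma adjusted p = 0.00026). Among the changes that passed, it was the one with the largest number of reads behind it.

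PRX52 (AT5G05340), needed for lignin of interfascicular fibres, moved the other way. It had 42.1, 53.8 and 63.7 normalized counts in atino80-6-labelled libraries and 28.0, 19.5 and 24.5 in wild type. The rise was 2.22-fold, 1.11 ± 0.26 on the log2 scale (limma adjusted p = 0.012), at a low level of 1.30 ± 0.266 FPKM in atino80-6 and 0.588 ± 0.104 FPKM in wild type (SD, n = 3 each). PRX25 (AT2G41480) did not overlap between the groups, with 75.9, 57.8 and 74.0 normalized counts in atino80-6 and 28.0, 51.7 and 42.9 in wild type, but missed the threshold (log2 change 0.78 ± 0.27, limma adjusted p = 0.051), which it passed under 6 of 19 alternatives.

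The peroxidases best known from lignin work on stems and the Casparian strip did not pass. PRX72 (AT5G66390), needed for syringyl lignin, had 2257, 2720.3 and 2863 normalized counts in atino80-6-labelled libraries and 1906, 3799 and 3617 in wild type (log2 change -0.19 ± 0.24, limma adjusted p = 0.57). PER64 (AT5G42180), which polymerises lignin in the Casparian strip of the endodermis, had 1558, 1964 and 1952 in atino80-6 and 1442, 2325 and 2192 in wild type (-0.10 ± 0.18, limma adjusted p = 0.70). In both genes wild type 1 lay below all other libraries. AT4G33420 had a log2 change of -0.45 ± 0.16 (limma adjusted p = 0.055), and passed under 5 of 19 alternatives, among them the authors' deposited table (log2 fold change -0.47, adjusted p = 0.014). AT2G22420 had one of 0.35 ± 0.19 (limma adjusted p = 0.19). AT4G36430 and AT5G51890 stood at 0.35 ± 0.33 and -0.086 ± 0.35. PRX2 had at most 5 reads in any library.

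Among the 6 members placed in the apoplastic oxidative burst and defence, 3 fell, none rose and 3 did not pass, with a median log2 change of -0.55. Over all tested genes, 16.6% were lower and 17.7% higher. AT1G14550, the neighbour of PER4, had 18.7, 52.8 and 93.3 normalized counts in atino80-6-labelled libraries and 668, 207 and 422 in wild type. The fall was 7.87-fold, -3.07 ± 0.57 on the log2 scale (limma adjusted p = 0.0038). Its libraries varied widely within each group, but the groups did not overlap. Prx37, whose overexpression is known to dwarf plants, had 78.3, 78.7 and 80.8 normalized counts in atino80-6 and 138, 147 and 243 in wild type, a fall of 2.22-fold (-1.10 ± 0.22, limma adjusted p = 0.0053).

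PRX33 and PRX34 encode near-identical enzymes that together produce much of the hydrogen peroxide released on contact with microbes. PRX33 had 38.6, 25.9 and 53.5 normalized counts in atino80-6-labelled libraries and 83.1, 52.7 and 101 in wild type (log2 change -0.999 ± 0.33, limma adjusted p = 0.045). The highest atino80-6 library lay just above the lowest wild type library, and the call was lost without atino80-6 1, atino80-6 2, wild type 1 or wild type 3, with adjusted p-values of 0.089, 0.15, 0.10 and 0.16. PRX34 stood at a far higher level per length, 159 ± 31.7 FPKM in atino80-6 and 155 ± 38.7 FPKM in wild type, against 0.748 ± 0.263 and 1.50 ± 0.468 FPKM for PRX33 (SD, n = 3 each). PRX34 had 8038, 6873 and 10164 normalized counts in atino80-6 and 5957, 8628 and 9960.2 in wild type (0.044 ± 0.20, limma adjusted p = 0.88). AT2G37130, the highest member, and AT3G32980 (-0.10 ± 0.24, limma adjusted p = 0.77) also did not pass.

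**Figure D3:**
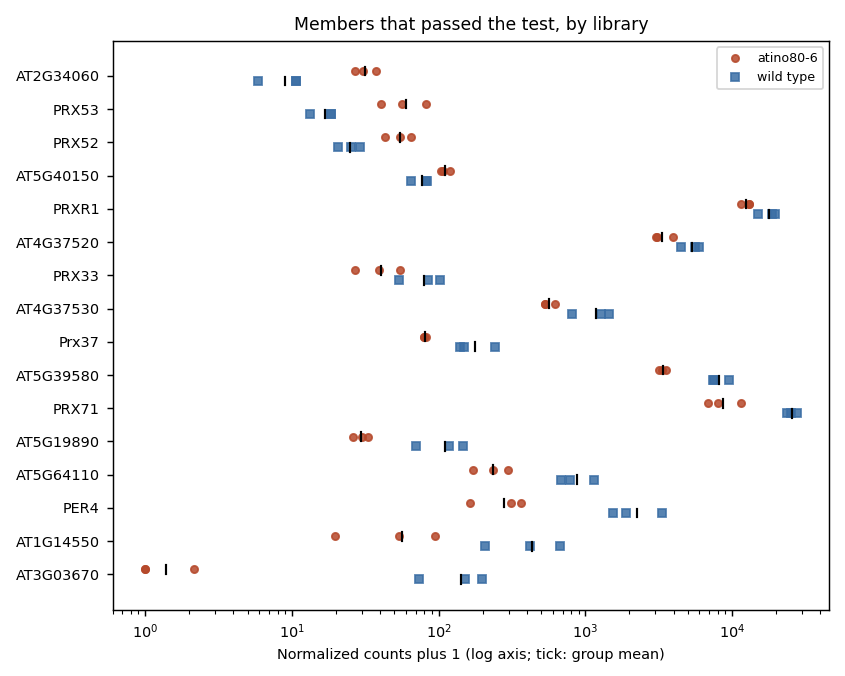
Normalized counts plus 1 (log axis) per library for the 16 members that passed the test, with a tick at each group mean. For 15 of them no atino80-6 library overlaps with a wild type library; the exception is PRX33, where the highest atino80-6 library is at 53.5 and the lowest wild type library at 52.7 normalized counts.

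The 6 members tied to root hairs gave 1 gene that fell among 5 tested, none that rose, and a median of -0.76. The share lower was 20%, against 16.6% of all tested genes. The authors' deposited table had 3 lower, where 16.5% of all genes with the same mean were called lower. AT5G39580, reported to promote root hair growth in the cold, had 3355, 3163 and 3565 normalized counts in atino80-6-labelled libraries and 9468, 7402 and 7579 in wild type. It fell 2.42-fold, -1.27 ± 0.11 on the log2 scale (limma adjusted p = 5.8e-05), with little spread inside either group. AT5G64100, placed in the same role, had 7364, 8159 and 10064 normalized counts in atino80-6 and 8590.0, 15997 and 14064 in wild type (-0.56 ± 0.22, limma adjusted p = 0.083). It passed in the authors' deposited table (log2 fold change -0.60, adjusted p = 0.010). Without wild type 1, the root hair members that were lower numbered 2, where 17.5% of all tested genes were called lower. Without wild type 2 they also numbered 2, and the share over all tested genes in that fit is not given here.

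The 3 members named for or tied to root hair cells themselves varied widely among the wild type libraries. RHS18 (AT5G22410, root hair specific) had 40.9, 30.9 and 30.7 normalized counts in atino80-6-labelled libraries and 84.9, 32.2 and 141 in wild type (-1.09 ± 0.47, limma adjusted p = 0.11). It passed in the authors' deposited table (log2 fold change -1.34, adjusted p = 0.017). RHS19 (AT5G67400) had 157, 89.6 and 85.4 in atino80-6 and 140.0, 123 and 345 in wild type (-0.76 ± 0.39, limma adjusted p = 0.16). AT4G26010 had 124, 91.6 and 112 in atino80-6 and 121, 117 and 423 in wild type (-0.74 ± 0.44, limma adjusted p = 0.23). Wild type 3 was the highest of the 6 libraries in all 3 genes. Among the wild type libraries, wild type 3 was highest for 10 of the 11 tested root hair markers, against 26 of the 47 tested members. The root hair markers EXPA7, EXPA18, LRX1 and PRP3 were also highest in wild type 3. Of these, EXPA7, EXPA18 and LRX1 were picked after their values were seen. Of the 11 root hair markers tested, the log2 change was negative for 7 and positive for 4. The summed root hair markers were 3356, 3184 and 3373 normalized counts in atino80-6 and 2895, 3282 and 3932 in wild type. The part of the root hair markers in the values of these members was not tested.

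The 3 members tied to UPB1, a transcription factor that sets the size of the root's dividing zone through peroxidases, did not pass. AT4G11290 had a log2 change of 0.37 ± 0.16 (limma adjusted p = 0.10), AT4G16270 one of -0.22 ± 0.38 (0.68) and AT5G17820 one of -0.085 ± 0.23 (0.80). UPB1 itself stood at -0.18 (limma adjusted p = 0.27).

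A further 29 members, for which no role was assigned here, had 23 tested genes, of which 3 rose and 6 fell, with a median of -0.32. AT3G03670 showed the largest change among the 47 tested members. It had 0, 0 and 1 reads in atino80-6-labelled libraries, against 83, 154 and 226 reads in wild type. Scaled for depth, the wild type count was 383 times that in atino80-6, with an exact 95% interval of 68.4 to 15161 that covers counting error only. The fitted log2 change of -6.66 ± 0.51 (limma adjusted p = 3.4e-05) depends on the pseudocount. In the authors' deposited table its log2 fold change was -8.48 (adjusted p = 1.5e-10). Per length, it stood at 0.0114 ± 0.0197 FPKM in atino80-6 and 4.21 ± 1.89 FPKM in wild type (SD, n = 3 each).

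AT5G64110 lies between AT5G64100 and PRX71 on chromosome 5. It had 171, 234 and 295 normalized counts in atino80-6-labelled libraries and 686, 1146 and 791 in wild type, a fall of 3.75-fold (-1.90 ± 0.23, limma adjusted p = 0.00039). AT5G19890 had 29.2, 24.9 and 31.9 in atino80-6 and 69.1, 117 and 145 in wild type, a fall of 3.86-fold (-1.85 ± 0.29, limma adjusted p = 0.0014). In both genes the groups lay clearly apart. The adjacent pair AT4G37520 and AT4G37530 on chromosome 4 fell together. AT4G37520 had 3071, 3022 and 3979.7 normalized counts in atino80-6 and 4523, 5594 and 5993 in wild type (-0.68 ± 0.14, limma adjusted p = 0.0056). AT4G37530 had 534, 529 and 621 in atino80-6 and 815, 1278 and 1442 in wild type (-1.03 ± 0.19, limma adjusted p = 0.0036). With 92.4% identical coding bases, part of their reads may be shared. PRXR1 had the smallest change among the genes that fell, with 13008, 11563 and 12994 normalized counts in atino80-6 and 15015, 18650.2 and 19796 in wild type (1.42-fold, -0.50 ± 0.12, limma adjusted p = 0.014). Its call was lost without atino80-6 2, wild type 2 or wild type 3, with adjusted p-values of 0.070, 0.058 and 0.060.

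Of the members that rose, 3 had no assigned role, and all 4 had low levels. AT2G34060 had 36.2, 25.9 and 29.6 normalized counts in atino80-6-labelled libraries and 9.62, 4.88 and 9.62 in wild type, a rise of 3.80-fold (1.84 ± 0.37, limma adjusted p = 0.0055). PRX53 had 39.7, 81.7 and 55.8 in atino80-6 and 17.5, 17.6 and 12.2 in wild type, 3.74-fold higher (1.80 ± 0.33, limma adjusted p = 0.0032). Both rest on at most 20 reads in each wild type library. AT5G40150 had 106, 104 and 119 in atino80-6 and 82.2, 63.5 and 81.3 in wild type (1.45-fold, 0.54 ± 0.17, limma adjusted p = 0.041), and did not pass in the authors' deposited table (adjusted p = 0.073). Its call was lost without any of atino80-6 1, atino80-6 2, atino80-6 3, wild type 2 or wild type 3, with adjusted p-values of 0.080, 0.086, 0.096, 0.14 and 0.074. The highest mean level among the 4 was 3.37 ± 0.261 FPKM in atino80-6 and 2.32 ± 0.325 FPKM in wild type (SD, n = 3 each), for AT5G40150.

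The 14 members without an assigned role that did not pass included AT5G06730, with 5.84, 5.98 and 6.83 normalized counts in atino80-6-labelled libraries and 11.4, 12.7 and 24.5 in wild type (-1.18 ± 0.43, limma adjusted p = 0.064), and AT5G14130, with 5.84, 9.96 and 20.5 in atino80-6 and 22.7, 23.4 and 30.6 in wild type (-1.17 ± 0.45, limma adjusted p = 0.075). For both, no atino80-6 library overlapped with a wild type library. The other 12 had log2 changes between -0.43 (AT2G18150) and 0.58 (AT2G38380). Below the mean of 10 normalized counts, AT5G19880 had 0, 3 and 10 reads in atino80-6 and 21, 11 and 13 in wild type. AT2G39040 had 3, 8 and 4 reads in atino80-6 and 6, 7 and 9 in wild type, and AT4G08780 had 3, 9 and 5 in atino80-6 and 10, 11 and 5 in wild type. AT1G05240, PRX2 and AT5G58400 had between 0 and 5 reads in every library, where a count of 3 reads corresponds to between 2.62 and 3.50 normalized counts. Changes of these genes were not detectable from such counts. AT1G05240 and PRX2 have identical coding sequences, so a low level cannot be told apart from reads left out because they match both genes.

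For neighbours with both genes tested, the log2 ratio of the first over the second gene within each library asks whether copies side by side moved alike. Of 12 neighbouring pairs, 7 could be compared, and 3 libraries against 3 allow no exact permutation p below 0.1. The ratio of PER4 over AT1G14550 was 3.05, 2.53 and 1.95 in atino80-6-labelled libraries and 2.31, 2.89 and 2.16 in wild type, a difference of 0.060 (exact two-sided permutation p = 0.90). The libraries of the groups overlapped. The ratio of PRX53 over AT5G06730 differed most, at 2.57, 3.57 and 2.86 in atino80-6 and 0.58, 0.44 and -0.94 in wild type. The difference was 2.97 (exact two-sided permutation p = 0.1, Benjamini-Hochberg adjusted over the 7 pairs 0.175). PRX53 rose while AT5G06730, a few reads deep, did not pass.

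The ratio of AT5G64100 over AT5G64110 was 1.34 higher in atino80-6-labelled libraries, with no overlap between the groups. That of PRX33 over PRX34 differed by -1.04 and that of AT4G37520 over AT4G37530 by 0.35, again without overlap, so these 3 pairs and PRX53 over AT5G06730 all reached the smallest exact permutation p of 0.1 (adjusted 0.175). AT5G64110 over PRX71 differed by -0.32 and AT2G38380 over AT2G38390 by 0.83, each with an exact permutation p = 0.3. Neither separated the groups. No pair passed the threshold of 0.05.

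**Figure D4:**
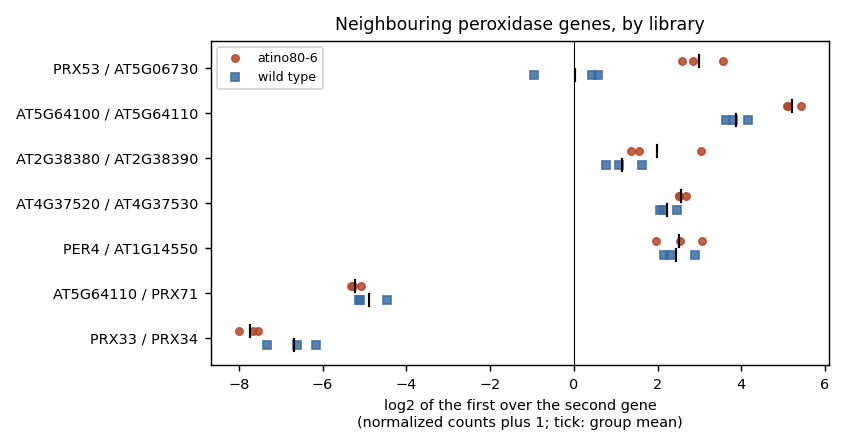
Log2 ratio of normalized counts plus 1, first over second gene, per library for the 7 neighbouring pairs, with a tick at each group mean and a line at 0 (equal counts). The 2 groups lie apart for PRX53 over AT5G06730, AT5G64100 over AT5G64110, AT4G37520 over AT4G37530 and PRX33 over PRX34, and overlap for PER4 over AT1G14550, whose difference was 0.060.

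Members were often extreme in atino80-6 3 and wild type 1, the libraries with the largest differences from their group over all tested genes. Of the 47 tested members, 32 (68.1%) were highest in atino80-6 3 among the atino80-6 libraries, against 40.5% of all tested genes, and 29 (61.7%) were lowest in wild type 1 among the wild type libraries, against 36.5% of all. Without these 2 libraries, 4 members were called higher and 24 lower, where 21.9% and 21.7% of all genes were called. The members gained included PRX34 (AT3G49120, log2 change -0.32, limma adjusted p = 0.037), AT2G37130 (-0.30, 0.015), PRX72 (AT5G66390, -0.58, 0.0024), PER64 (AT5G42180, -0.37, 0.031), AT5G64100 (-0.95, 0.00017) and AT3G32980 (-0.51, 0.0021). With 2 libraries in each group this fit has fewer degrees of freedom, and the libraries were left out because they stood apart in these same data. The xylem markers showed the same libraries apart: all 7 were lowest in wild type 1 among the wild type libraries. Their summed normalized counts were 1690.4, 1734 and 1938 in atino80-6 and 1337, 2674 and 2800 in wild type. Summed endodermis markers were 9549.9, 10529.6 and 10979.6 in atino80-6 and 8658, 13326 and 12233 in wild type. Of the 9 endodermis markers 8 were tested and SGN3 (-0.80, limma adjusted p = 0.0010) and SCR (-0.33, 0.0088) fell. None of the 7 xylem markers passed. With all libraries, 17.7% of all tested genes were higher and 16.6% lower. Without wild type 1 alone, 5 of the 7 xylem markers, 5 of the 8 endodermis markers and 5 of the 10 lignin-related peroxidases were called lower, where 17.5% of all tested genes were. In that fit 17.8% of all genes were called higher, among them 2 of the lignin-related peroxidases, PRX52 and AT2G22420. As for the xylem markers, wild type 1 was the lowest wild type library for 7 of the 8 endodermis markers. The same held for 7 of the 10 lignin-related peroxidases. Leaving wild type 1 out therefore raises the wild type means of those genes. It was also picked from these same data, so the counts are not separate evidence. Root hair markers gave 1 fall (PRP3, -1.28, limma adjusted p = 0.035) among 11 tested, which was lost without atino80-6 2, atino80-6 3 or wild type 3 (0.12, 0.081 and 0.099) and in the authors' deposited table (adjusted p = 0.058). Of 4 tested root cap and root tip markers 0 passed, and the 1 tested seed coat marker, TT10, had a log2 change of -1.20 (limma adjusted p = 0.038) that passed with all libraries but not without any one of atino80-6 2, atino80-6 3, wild type 1, wild type 2 or wild type 3 (0.12, 0.074, 0.055, 0.13 and 0.086). No marker in the tables was at 0 in all libraries. The part of these markers in the peroxidase results was not tested.

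Genes that supply or consume the peroxidases' substrates were counted from hand-written lists. The counts stand beside 17.7% of all tested genes called higher and 16.6% called lower. The enzymes of monolignol synthesis, which make the precursors of lignin, gave 8 falls and 1 rise among 16 tested (median -0.27). The fall of HCT (-0.31) was lost without atino80-6 1, atino80-6 2, wild type 2 or wild type 3. Its limma adjusted p-values were then 0.12, 0.13, 0.16 and 0.16. PAL1, the entry enzyme of the phenylpropanoid pathway, had 1544, 1648 and 1976 normalized counts in atino80-6-labelled libraries and 2859, 3634 and 4597 in wild type (-1.08 ± 0.17, limma adjusted p = 0.0013). 4CL1, which activates the acids, fell by 0.83 and C4H, which follows PAL, fell by 0.74 on the log2 scale. FAH1, which leads to syringyl units, rose by 0.81 (limma adjusted p = 0.040), a call that was lost without atino80-6 1, atino80-6 2, wild type 2 or wild type 3 (0.13, 0.13, 0.12 and 0.11). Laccases, the copper enzymes that also polymerise monolignols, gave 5 falls and 0 rises among 14 tested (median -0.46). TT10, counted above as a seed coat marker, is 1 of these 5. LAC7 had 553, 655 and 703 normalized counts in atino80-6 and 2353, 2828 and 2477 in wild type (-2.00 ± 0.11, limma adjusted p = 7.4e-06). LAC2 and AT5G01050 fell by 1.61 and 1.26. The call of LAC2 was lost without atino80-6 1, atino80-6 3, wild type 2 or wild type 3 (limma adjusted p = 0.067, 0.056, 0.085 and 0.091), and the laccases that fell numbered 3 without atino80-6 2, atino80-6 3 or wild type 3 and 2 without wild type 2. The 2 laccases best known from stem lignin, LAC4 (-0.64, limma adjusted p = 0.19) and LAC17 (-0.73, 0.20), did not pass here but did in the authors' deposited table (log2 fold changes -0.77 and -0.92, adjusted p = 0.035 and 0.033), where 7 laccases were lower.

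NADPH oxidases, which produce the superoxide that becomes hydrogen peroxide in the wall, gave 5 falls and 0 rises among 8 tested, with all 8 changes negative and a median of -1.16. For this and the next lists, the shares over all tested genes were 17.7% higher and 16.6% lower. RBOHA had 30.4, 21.9 and 30.7 normalized counts in atino80-6-labelled libraries and 144, 186 and 169 in wild type (-2.55 ± 0.21, limma adjusted p = 4.7e-05). AT4G25090 fell by 2.31, AT4G11230 by 1.58, RBOHB by 1.53 and RBOHF by 0.79. RBOHD, the oxidase of the defence burst, stood at -0.21 (limma adjusted p = 0.097) and RBOHC, the one of root hairs, at -0.13 (0.51). The list of catalases and the ascorbate peroxidase family, written for removal of hydrogen peroxide inside the cell, gave 4 rises and 1 fall among 10 tested (median 0.26). Its genes were placed by family, not by a shown activity of each protein. The largest rise was that of the peroxisomal catalase CAT2, with 29398, 31339 and 22203 normalized counts in atino80-6 and 10888, 10041 and 10112 in wild type (1.40 ± 0.14, limma adjusted p = 0.00012). The chloroplast proteins TL29 and TAPX rose by 1.31 and 1.19, and the cytosolic APX1 fell by 0.44. Superoxide dismutases gave 5 rises and 1 fall among 7 tested (median 0.93). The rise of FSD3 (0.93) was lost without atino80-6 1, atino80-6 2, wild type 2 or wild type 3. Its limma adjusted p-values were then 0.051, 0.063, 0.056 and 0.055. FSD1, CSD2 and FSD2, all found in chloroplasts, rose by 1.28, 1.23 and 1.03, and the cytosolic CSD1 fell by 0.34; the call of CSD1 was lost without atino80-6 1, atino80-6 2, wild type 2 or wild type 3 (limma adjusted p = 0.060, 0.089, 0.052 and 0.082). Of 10 tested regulators of peroxidase or lignin genes 1 passed: MYB15, an activator of defence-induced lignin, fell by 2.25 (limma adjusted p = 0.00012).

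**Figure D5:**
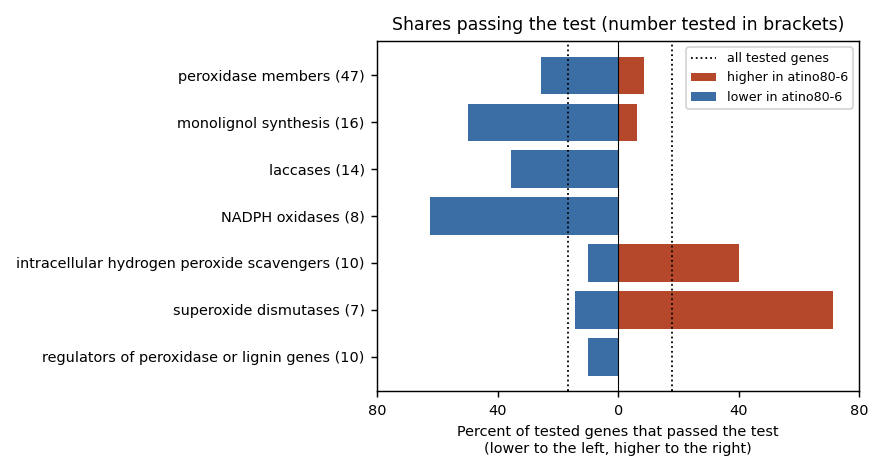
Percent of tested genes that passed the test in each direction, for the peroxidase members and 6 related gene lists, with dotted lines at the shares of all tested genes (17.7% higher, 16.6% lower). Falls make up 62.5% of the NADPH oxidases and 35.7% of the laccases, and rises 71.4% of the superoxide dismutases.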

How the data were processed

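Per the submitters' processing notes, the tools were HISAT2, featureCounts and DESeq2, beside FastQC, cutadapt, SAMtools and deepTools, and the build was TAIR10; versions, strand and annotation are not given in the sources used here. Per the labels' protocols, DNase-treated TRIzol RNA went into TruSeq RNA libraries. The authors deposited FPKM values scaled by DESeq2 size factors. A second deposited table, the authors' DESeq2 comparison, gives a mean signal, log2 fold changes and their errors, a score (change over error), p-values and adjusted p-values.

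The design assumed normalized values; as the file held FPKM, normalized counts were recovered from FPKM by the ratio of mean signal to mean FPKM of each gene. Without the size factors, 146922 of 146922 values were whole reads to within 0.01. Genes averaging 10 or more normalized counts were fitted with limma 3.58.1 in R 4.3.3 on log2(normalized counts + 1), with an abundance trend in the empirical Bayes step, two-sided, with Benjamini-Hochberg adjustment over 20222 genes and a threshold of 0.05. Limma voom on the recovered reads was among the alternatives; edgeR and DESeq2 were not run here. The fit was also run on simulated counts, with few changed genes and the same dispersion (spread beyond counting error) for every gene. That run does not show how the fit behaves at the spread of these libraries. Further steps used Python 3.11.15 (pandas 2.3.3, numpy 2.4.6, scipy 1.17.1); matplotlib 3.10.9 drew the figures.

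Members, roles and the 11 lists (6 of pathways, 5 of cell type markers) were chosen with earlier results of these data known. Symbols and sequences are from RefSeq (TAIR10.1); 24255 of 24487 genes (99.1%) matched, and 14 members carry a symbol. Named whatever their result were INO80 and 13 members with known roles. Further named were the 8 largest changes in each direction that passed, the 5 highest levels per length and groups of neighbours with a member that passed. Untested members and up to 3 genes that passed from each list were named too. RBOHJ, SND1, NST1, BAN and TT12 were not analysed here. RBOHF, RBOHD, RBOHC, AT4G11230, LAC4, LAC17, APX1, CSD1, FSD3, HCT, UPB1, EXPA7, EXPA18, LRX1, PRX25 and the further members and neighbouring pairs that did not pass were chosen after their values were seen. Repeat numbers are shared by the genotypes but did not pair the libraries. The 19 alternatives were pseudocounts, filters, scalings, other forms of the test, the FPKM values themselves, the authors' table, the replicate block and libraries left out.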

Additional observations from a re-analysis of the deposited data

How the results depend on the processing

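Of the 16 members that passed, 12 to 16 passed in the same direction under each of the 19 alternatives. Members called higher numbered 1 with a mean of at least 50 (a filter that removes 3 of the 4 from testing). Without atino80-6 3 and wild type 1 together, members called lower numbered 24 of 47, against 12 with all libraries. In that fit the lists together had 38 lower calls, a bare count from which neither a share nor a rise can be read. Lower calls grew more common among all tested genes too, at 21.7% in that fit against 16.6% with all libraries. The 38 calls were not compared with this general rise. The cause of the rise in members called lower was not tested either. Other family loci called higher were 2 with no filter and 0 to 1 when single libraries were left out, and those called lower were 2 in the authors' deposited table. The repeat numbers did not pair the libraries (correlations of deviations 0.03, -0.19 and -0.10); with the replicate block 4 members were higher and 13 lower. Scaling moved the median of all genes by at most 0.04 (equal library totals, -0.04).

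Changes of sign concerned members that did not pass. AT2G37130 stood at -0.0087 with equal library totals and, with quantile normalization, at -0.023 beside -0.0034 for PRX34 (AT3G49120); AT3G21770 stood at 0.0057 with trimmed mean scaling. Without atino80-6 3 and wild type 1 together, AT2G37130 stood at -0.30, AT3G49120 at -0.32, AT3G49960 at 0.088 and AT4G36430 at -0.26. With single libraries left out, log2 changes ran from -0.17 to 0.15 for AT2G37130, -0.72 to 0.18 for AT2G38390, -0.34 to 0.063 for AT3G01190, -0.19 to 0.084 for AT3G21770, -0.12 to 0.053 for AT3G28200, -0.41 to 0.090 for AT3G32980, -0.17 to 0.20 for AT3G49120, -0.95 to 0.21 for AT3G49960, -0.40 to 0.012 for AT4G16270, -0.0065 to 0.61 for AT4G36430, -0.36 to 0.056 for AT5G17820, -0.31 to 0.030 for AT5G42180 and -0.57 to 0.24 for AT5G51890. The difference between PER4 (AT1G14540) and AT1G14550 was -0.047 with a pseudocount of 5 and ran from -0.21 to 0.34 with single libraries left out. Depth limits members with few reads: AT3G03670, PRX53, AT2G34060 and the 6 untested genes, of which AT1G05240 and PRX2 also have identical coding sequences.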

Other observations

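Outside the member list, 16 of 17 further loci of the family had values and 10 were tested. Of these, 1 rose and 1 fell (10% each, against 17.7% higher and 16.6% lower among all tested genes). AT2G24800 had 24.5, 47.8 and 36.4 normalized counts in atino80-6-labelled libraries and 137, 98.6 and 118 in wild type, a fall of 3.26-fold (log2 change -1.71 ± 0.27, limma adjusted p = 0.0015). AT3G17070 had 218, 354 and 364 in atino80-6 and 199, 188 and 145 in wild type, a rise of 1.76-fold (0.79 ± 0.21, limma adjusted p = 0.021). In both genes the groups did not overlap. The rise of AT3G17070 did not pass without atino80-6 2, without atino80-6 3 or without wild type 3.

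AT1G77100, below the mean needed for a test, had 2.34, 12.9 and 2.28 normalized counts in atino80-6-labelled libraries and 0 reads in the 3 wild type libraries. RCI3 (AT1G05260), next to PRX2, had 2485, 2086 and 2600.4 normalized counts in atino80-6 and 1724, 2239 and 2029 in wild type and did not pass (log2 change 0.26 ± 0.12, limma adjusted p = 0.12).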
